A study of Mus musculus with 8 samples.

Results

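The comparison of 300 ng/ml doxycycline with no doxycycline was made on 2 dye-swapped arrays of the 8 in the series. They were chosen by their labels: both pair RNA of clone 4 cells given 300 ng/ml doxycycline with RNA of clone 4 cells given none (0 ng/ml). All cells were bone marrow-derived mouse pro/preB cells of the Pax5-/- genotype, grown with IL-7 on gamma-irradiated OP9 stromal cells, a feeder line. Clone 4 is 1 clone that carries 2 retroviral vectors. One (pSR-rtTA-IRES-HISRes) supplies the transactivator rtTA, and the other (pSR-TRE-huPax5) places human Pax5 under a promoter that rtTA and doxycycline switch on. Array 1 had the 300 ng/ml RNA in Cy5 and array 2 had it in Cy3. The 6 other arrays compared 10 ng/ml, 1000 ng/ml and Pax5sz2 cells (rtTA without huPax5, doxycycline of unstated dose) with the same control. How long doxycycline was applied is not given in the sources used here. The labels name no replicate cultures, so each group is 1 RNA sample, no p-value can be given for these differences, and every ± below is the SD of 2 technical arrays. Values are log2 ratios of 300 ng/ml over no doxycycline, and a feature (a gene or unnamed probe) was called higher or lower only if it was at least 2-fold changed (log2 of 1) in the same direction on both arrays.

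Pax5 is a paired-domain transcription factor that holds B cell precursors in the B lineage. It switches on genes of the B cell receptor pathway, such as Blnk, and silences genes of other lineages, such as Fc receptor and Notch genes. Progenitors that lack it keep an early B program but also transcribe genes of myeloid, T and NK cells, which is why re-expression of Pax5 is used to read both arms of its function.

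In the RNA at 300 ng/ml, known Pax5-activated genes such as Blnk and Cplx2, interferon-induced genes, immediate early genes and stromal genes were among the higher features. Fc receptor, myeloid, integrin and IL-1 receptor family genes were among the lower ones. Of 17119 features with a value on both arrays, 264 were higher (1.54% called) and 474 lower (2.77% called), together 4.31%. With median centring in place of loess, the counts were 97 and 386, so that 20.1% rather than 35.8% of the called features were higher.

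**Figure D1:**
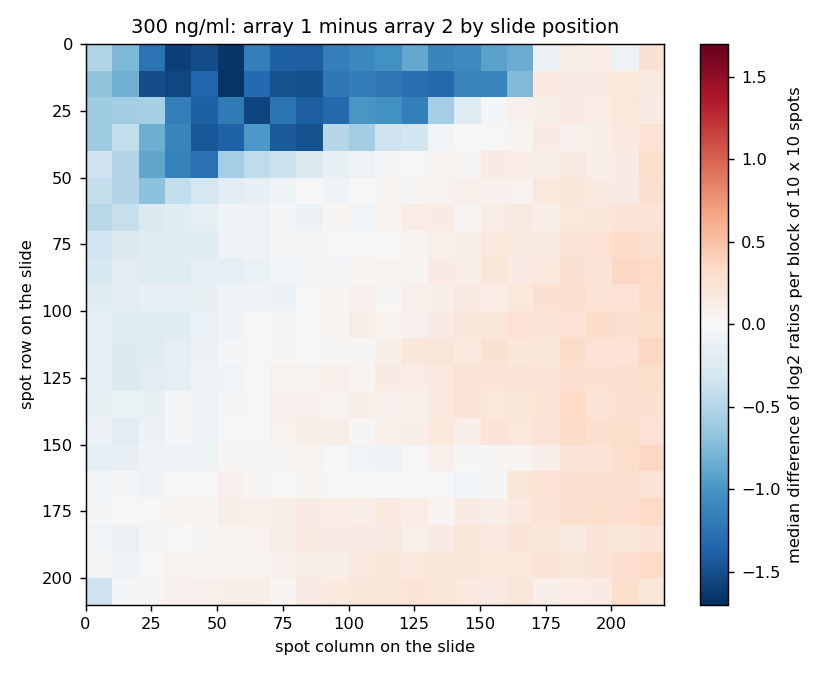
Median difference between the log2 ratios of array 1 and array 2 at 300 ng/ml, for each block of 10 by 10 spots at its place on the slide (colour, in log2 units). The 63 blocks at -0.5 or below all lie in rows 1 to 60 and columns 1 to 170, at the top left of the slide.

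Array 1 had a dim corner that bears on every count. In 63 of 462 blocks of 10 by 10 spots, the ratio on array 1 was lower than on array 2 by a median of at least 0.5 log2 units, with a minimum of -1.66. These blocks all lay in rows 1 to 60 of the slide's 206 and columns 1 to 170 of its 215, and the 3 other pairs of arrays had 0 such blocks. They hold 5823 of 41174 probes. The manufacturer's spike-in controls, RNAs added to both samples and not used to find the corner, read the same way. Their log2 ratio inside the corner minus that outside was -1.48 on array 1 (median of 9 probes) and -0.11 on array 2. On array 1 the same difference was -1.68 for Cy5, the channel of the 300 ng/ml RNA, and -0.22 for Cy3.

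Most of the features that were low on array 1 lay in this corner. On array 1, 1793 features were at least 2-fold lower, 1077 of them among the 2133 in the corner, but 650 were so on array 2. Inside the corner the median ratio was -1.01 on array 1 and 0.066 on array 2. The 2 arrays correlated with r = 0.646 across all features, 0.502 inside the corner and 0.856 across the 14986 outside. These r are across genes, which are not replicates, and the corner was found from the same difference, so they are a description. All 10 features past the size in opposite directions lay in the corner. Inside it 4 features were called higher (0.188%) and 48 lower (2.25%). With its spots left out and the probes chosen again, 267 of 15612 features were higher (1.71%) and 439 lower (2.81%), together 4.52%. Members in the corner are marked as such below, and for them the value on array 2 is the one read from an undimmed spot.

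**Figure D2:**
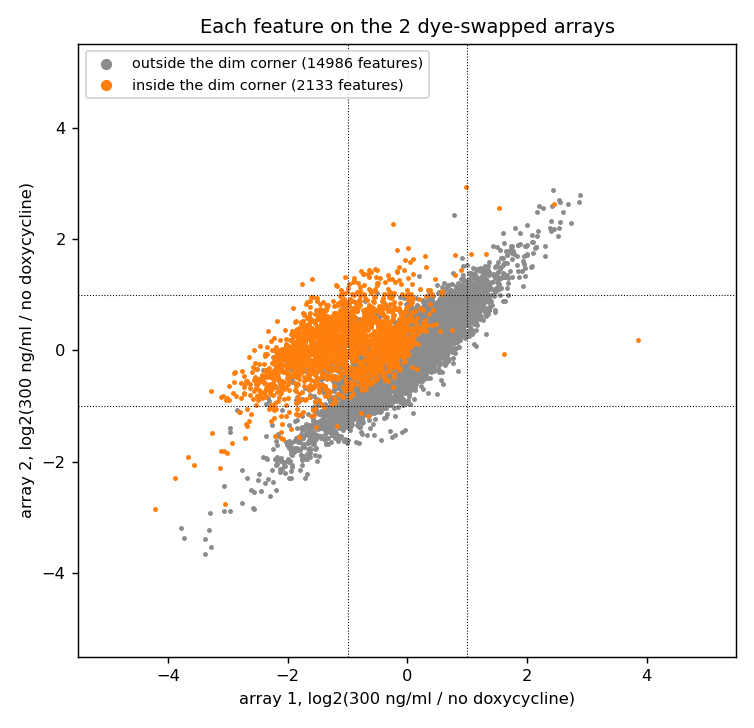
Log2 ratio of each feature on array 1 (horizontal axis) and array 2 (vertical axis), with dotted lines at the 2-fold size. The 2133 features in the corner (orange) are shifted to lower values on array 1 against the 14986 others (grey).

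The labelled cell type was checked by marker genes. Of 14 pro-B and pre-B cell markers, 12 were well above background in both RNAs, among them Cd79a, Cd79b, Ebf1, Il7r, Rag1 and Dntt. The probes for Igll1 and Vpreb1, the surrogate light chain genes, were not well above background in either RNA. Of 14 stromal feeder cell markers 12 were also detected in both RNAs, all but Dcn and Lum. Detection in both RNAs also held for 6 of 10 granulocyte and macrophage markers (not Camp, Elane, S100a8 or S100a9), 4 of 7 T cell markers (not Cd3d, Cd3g or Cd8a), 3 of 5 mast cell, 3 of 5 erythroid and 2 of 5 NK cell markers. In bulk RNA, fewer cells of a type and less RNA per cell cannot be told apart.

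The labelled direction was kept. The 300 and 1000 ng/ml pairs, as labelled, were negatively correlated, with r = -0.361 over 25331 probes for the arrays with the treated RNA in Cy5 and -0.478 over 25483 with it in Cy3. The 1000 ng/ml arrays were on rehybridised slides and were processed with another protocol, and the direction of that pair is not settled. The labels state the dye of each RNA on the 300 ng/ml arrays and give no reason to turn them. If this pair were the turned one, each sign below would reverse.

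The 2 mouse Pax5 probes read differently. The probe for the coding transcript gave 0.28 and 0.18 on arrays 1 and 2, a mean of 0.23. The probe for a cDNA clone assigned to the Pax5 locus gave 2.39 and 2.32, a mean of 2.36 ± 0.055, and it was at 2.66 at 10 ng/ml and at 3.02 in Pax5sz2 cells, which have no huPax5. The induced gene is human and the endogenous gene is disrupted, so neither probe checks the labels.

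**Figure D3:**
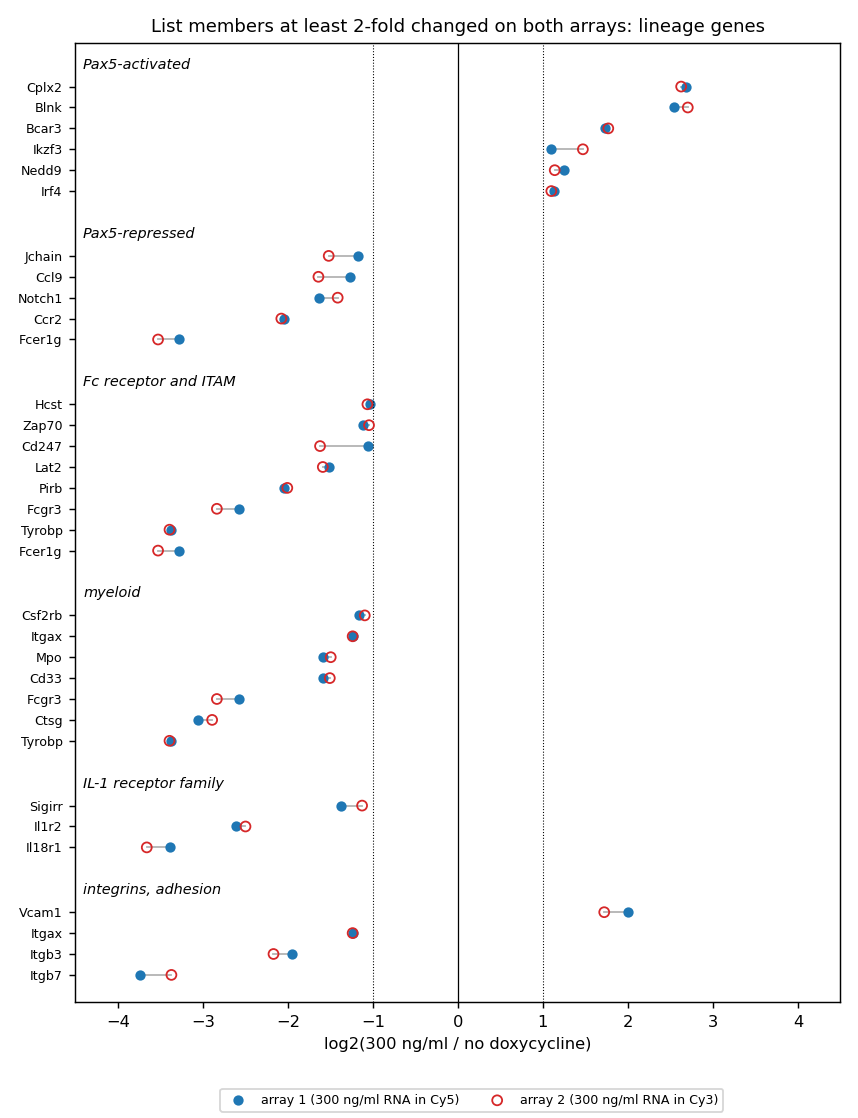
Log2 ratio of list members at least 2-fold changed on both arrays, with array 1 filled and array 2 open, grouped by gene list. The 6 Pax5-activated members plotted lie between 1.10 and 2.70, the 8 Fc receptor and ITAM members between -3.53 and -1.04.

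Of 24 Pax5-activated genes, 20 had a value on both arrays, and 7 of these were higher and 0 lower, with a median over the 20 of 0.44 against -0.019 over all features. The list holds textbook targets and was chosen with results of these data known, so its direction is not independent evidence. Blnk encodes the adaptor that couples the pre-B cell receptor to downstream kinases. Its log2 signals on arrays 1 and 2 were 12.12 and 11.81 without doxycycline and 14.66 and 14.52 at 300 ng/ml. The ratios were 2.54 and 2.70 (2.62 ± 0.12), so both dye orientations gave a level more than 4-fold higher. Cplx2, a complexin of regulated exocytosis, was the highest of the list at 2.68 and 2.63 (2.65 ± 0.039), with 2 other probes at 1.31 and 0.18.

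Of the other called Pax5-activated members, 4 were an exchange factor, a scaffold and 2 transcription factors. Bcar3, an exchange factor of adhesion signalling, was at 1.73 and 1.77 (1.75 ± 0.028), and its scaffold partner gene Nedd9 at 1.25 and 1.14 (1.19 ± 0.076), with another Nedd9 probe at 0.21. Irf4, a transcription factor of light chain rearrangement and plasma cells, was at 1.13 and 1.10 (1.11 ± 0.019). Ikzf3, the gene of Aiolos, was at 1.10 and 1.47 (1.28 ± 0.26), but its other probe was at 0.04. These 4 genes were called on both dye orientations at smaller size than Blnk.

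Of the 13 Pax5-activated genes not called, Atp1b1, a sodium pump subunit in the dim corner, was at 0.90 on array 1 and 1.45 on array 2. Lef1, a transcription factor of early B cells, was just under the size at 0.84 and 0.99. Vpreb3 was at 0.42 and 0.73 and Bank1, a B cell scaffold, at 0.34 and 0.27. Cd79a, the signalling chain of the B cell receptor, was at 0.24 and 0.086, Cr2 at 0.086 and 0.069 and Cd22 at -0.17 and 0.19, all near 0 on both arrays. Cd72 was at -0.32 and -0.64 and Sdc4 at -0.33 and -0.23, below 0 on both. Siglecg was at 0.28 and 0.032, Slamf6 at 0.28 and -0.036 and Irf8 at 0.37 and -0.18. Spib, an ETS factor gene in the corner, was at -1.74 on array 1 and -0.0087 on array 2. The list thus ran from genes several-fold higher to genes near or below 0.

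Of 20 Pax5-repressed genes, 19 had a value on both arrays, 5 were lower and 0 higher, and the median was -0.78. With median centring 3 were lower. Fcer1g encodes the common gamma chain that Fc receptors signal through. Its signals were 12.93 and 12.90 without doxycycline and 9.65 and 9.37 at 300 ng/ml, and the ratios -3.28 and -3.53 (-3.40 ± 0.18), with another probe at -2.52. Notch1, the receptor that directs progenitors to the T lineage, was at -1.64 and -1.41 (-1.53 ± 0.16), with another probe at -1.31. The chemokine receptor gene Ccr2 was at -2.05 and -2.08 (-2.06 ± 0.021), although its other probe was at -0.48. Ccl9, a chemokine gene of myeloid cells, was at -1.27 and -1.64 (-1.46 ± 0.26). Jchain, whose product joins IgM and IgA into polymers, was at -1.18 and -1.52 (-1.35 ± 0.24). Both arrays placed these 5 genes at least 2-fold below the level without doxycycline.

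Most of the other Pax5-repressed genes were below 0 without reaching the size. Grap2, an adaptor of T cell signalling, was at -0.87 and -1.09, and Itgal, the integrin chain CD11a, at -0.52 and -1.10. Csf1r, the receptor for macrophage colony-stimulating factor, was at -0.59 and -0.55 and Emb at -0.99 and -0.57. Flt3, the receptor of early progenitors, lies in the corner and was at -1.65 on array 1 and -0.67 on array 2. Ldhb, a lactate dehydrogenase subunit, was the exception with the largest positive ratios, 1.02 and 0.94. In all, 15 of the 19 were below 0 on both arrays, against 6642 of all 17119 features.

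The Fc receptor and ITAM list, which holds receptors and adaptors that signal through tyrosine-based motifs, had the lowest median of the 42 lists. Of 16 members with a value, 8 were lower and 0 higher, with a median of -1.04. The count was 5 with median centring. Tyrobp, the adaptor DAP12, had signals of 11.94 and 12.06 without doxycycline and 8.56 and 8.66 at 300 ng/ml. Its ratios of -3.38 and -3.39 (-3.39 ± 0.0091) were nearly equal on both dye orientations. Fcgr3, the low-affinity IgG receptor, was at -2.57 and -2.84 (-2.70 ± 0.19), with another probe at -0.72. Pirb, an inhibitory receptor of myeloid and B cells, was at -2.05 and -2.01 (-2.03 ± 0.03), with another probe at -2.15. Lat2, a linker of Fc receptor signalling, was at -1.52 and -1.59 (-1.56 ± 0.048), with another probe at -2.12.

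The remaining called members of that list belong to T and NK cell signalling. Cd247, the zeta chain of the T cell receptor, was at -1.05 and -1.62 (-1.34 ± 0.40). The kinase gene Zap70 was at -1.12 and -1.05 (-1.08 ± 0.053) and Hcst, the adaptor DAP10, at -1.04 and -1.06 (-1.05 ± 0.021). The B cell members were elsewhere: Syk, the kinase of the B cell receptor, was at 0.073 and -0.25 and Fcgr2b, the inhibitory Fc receptor of B cells, at -0.29 and -0.29.

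Of the 21 tested genes of granulocytes and macrophages, 7 were at least 2-fold lower and 0 higher (median -0.57). Ctsg, a neutrophil granule protease, had signals of 14.77 and 14.53 without doxycycline and 11.71 and 11.64 at 300 ng/ml, and ratios of -3.06 and -2.89 (-2.98 ± 0.12). Mpo, the granule peroxidase, had a mean of -1.54 ± 0.065 over both arrays, and Cd33, a sialic acid-binding receptor, was at -1.58 and -1.51 (-1.55 ± 0.054). Csf2rb, the common beta chain of the IL-3 and GM-CSF receptors, was at -1.16 and -1.10 (-1.13 ± 0.048), with other probes at -0.44 and 0.14. For Itgax, the integrin CD11c, the 300 ng/ml RNA was not well above background on either array, so it was at least 2.35-fold lower against the detection level. Tyrobp and Fcgr3, given above, complete the 7. Of the myeloid transcription factor genes, Cebpa was above 0 at 0.29 and 0.33 and Cebpd at 0.61 and 0.66, while Spi1, the gene of PU.1, was below 0 at -0.90 and -0.60. Lyz2, the abundant lysozyme gene, was at -0.31 and -0.38.

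The promoters of the called myeloid genes are shown because PU.1 is the textbook activator of such genes. The motif searched was GAGGAAG on both strands, in RefSeq windows of 300 bases (from upstream of each start to just past it, build GRCm38.p6). Of the 7 called myeloid genes 5 have a window and 4 of these hold the motif (80%), namely Ctsg, Mpo, Cd33 and Fcgr3. It is in 15.4% of the 27025 genes with a window and in 15.5% of the 10806 tested features that have one. These genes were taken by their ratios, so the share is a description, and a match is not a binding site. Capitals mark the motif or its reverse complement, in windows at chr14:56102525-56102824 (minus strand) for Ctsg, chr11:87793534-87793833 (plus strand) for Mpo, chr7:43533122-43533421 (minus strand) for Cd33 and chr1:171059354-171059653 (minus strand) for Fcgr3, each read along its gene.
Ctsg: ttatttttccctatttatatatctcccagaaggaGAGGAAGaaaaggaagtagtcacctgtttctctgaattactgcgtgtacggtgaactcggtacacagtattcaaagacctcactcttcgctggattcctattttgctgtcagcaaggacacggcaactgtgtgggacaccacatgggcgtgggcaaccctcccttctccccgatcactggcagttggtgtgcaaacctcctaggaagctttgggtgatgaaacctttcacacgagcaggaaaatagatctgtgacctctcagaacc
Mpo: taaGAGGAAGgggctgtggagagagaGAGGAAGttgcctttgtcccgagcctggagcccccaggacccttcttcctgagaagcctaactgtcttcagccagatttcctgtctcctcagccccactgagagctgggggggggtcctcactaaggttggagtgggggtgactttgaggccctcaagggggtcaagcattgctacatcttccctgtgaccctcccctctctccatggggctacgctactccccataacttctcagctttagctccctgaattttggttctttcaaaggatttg
Cd33: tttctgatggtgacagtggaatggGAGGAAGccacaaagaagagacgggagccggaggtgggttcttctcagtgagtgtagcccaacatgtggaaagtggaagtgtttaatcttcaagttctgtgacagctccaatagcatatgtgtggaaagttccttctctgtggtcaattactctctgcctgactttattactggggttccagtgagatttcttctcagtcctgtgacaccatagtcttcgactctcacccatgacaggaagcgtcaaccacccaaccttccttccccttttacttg
Fcgr3: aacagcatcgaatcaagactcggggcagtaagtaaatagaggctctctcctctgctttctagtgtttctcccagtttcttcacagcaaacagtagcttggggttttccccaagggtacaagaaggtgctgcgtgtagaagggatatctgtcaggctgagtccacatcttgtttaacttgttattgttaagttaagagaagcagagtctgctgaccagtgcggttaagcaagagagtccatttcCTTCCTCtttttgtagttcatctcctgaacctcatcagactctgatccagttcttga

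Granule genes of mast cells and cytotoxic cells were also among the lower features. Of 7 mast cell genes 2 were lower (median -0.21): the carboxypeptidase gene Cpa3 at -1.94 and -2.09 (-2.01 ± 0.11) and the protease gene Mcpt8 at -1.54 and -1.88 (-1.71 ± 0.24). Of 9 NK and cytotoxic genes 2 were lower (median -0.31): Nkg7, a granule membrane protein, at -2.77 and -2.15 (-2.46 ± 0.43), and the cathepsin gene Ctsw at -1.30 and -1.40 (-1.35 ± 0.07). Of 15 T lineage genes 3 were lower (median -0.19; 1 with median centring), namely Cd7 at -2.17 and -1.54 (-1.86 ± 0.44) and the Cd247 and Zap70 given above. Lck, the proximal kinase of T cells, was at 0.029 and -0.34. None of these 3 lists had a member called higher. The summed marker signal at 300 ng/ml over that without doxycycline was 0.775 and 0.746 on arrays 1 and 2 for granulocyte and macrophage markers, 0.452 and 0.412 for mast cell markers, 0.38 and 0.441 for NK cell markers and 1.02 and 0.833 for T cell markers. The same ratio was 0.48 and 0.721 for the pro-B and pre-B cell markers, the labelled cell type, and 1.03 and 1.11 for erythroid markers. The summed signal was thus lower for B cell precursor markers as well as for granulocyte, mast and NK cell markers. The sums keep spots of the dim corner, such as that of the B cell precursor marker Il7r, which lowers the array 1 ratio. Such a sum is carried by the brightest markers, Nkg7 for NK cells and Mcpt8 and Cpa3 for mast cells. For B cell precursors these were Cd93, Cd79b and Ptprc. On array 2, the median log2 signal of the pro-B and pre-B cell markers was 11.74 without doxycycline and 11.72 at 300 ng/ml. The same medians were 7.09 and 6.52 for granulocytes and macrophages, 6.43 and 6.47 for mast cells and 6.23 and 6.16 for NK cells. The part of the cell makeup in the lower genes was not tested.

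Receptors of the IL-1 family held 3 lower members of 13 (median -0.54, or -0.17 on array 2 alone and -0.36 without the corner's spots). Il18r1, the ligand-binding chain of the IL-18 receptor, had signals of 12.42 and 12.28 without doxycycline and 9.04 and 8.62 at 300 ng/ml. Its ratios were -3.38 and -3.66 (-3.52 ± 0.20), among the 3 lowest of all named features. The decoy receptor gene Il1r2 was at -2.61 and -2.50 (-2.55 ± 0.077), with another probe at -2.46, and the inhibitory receptor gene Sigirr at -1.37 and -1.13 (-1.25 ± 0.17). The second chain of the IL-18 receptor, Il18rap, lies in the corner and was at -2.16 on array 1 and -0.49 on array 2. The signalling receptor gene Il1r1 was on the other side at 1.37 and 0.94.

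Other cytokine receptor genes were lower in part, 4 of 27, with 0 higher and a median of -0.48. They were Il12rb1 at -1.69 and -1.48 (-1.59 ± 0.15), the IL-2 receptor alpha chain gene Il2ra at -1.08 and -1.44 (-1.26 ± 0.25), Csf2rb2 at -1.13 and -1.33 (-1.23 ± 0.14) and Csf2rb. Taking the median over a gene's probes leaves 2. Il7r, the receptor for the IL-7 in the medium, lies in the corner and was at -2.99 on array 1 and -0.65 on array 2. Il2rg, its partner chain, was at -0.90 and -0.95, and Kit, the stem cell factor receptor, at -0.60 and -0.94.

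Among 21 integrin and adhesion genes 3 were lower and 1 higher (median -0.55, or -0.34 on array 2 alone). Itgb7, the beta 7 chain that pairs with alpha 4 in gut homing, was the lowest named feature of the comparison. Its signals were 10.24 and 10.18 without doxycycline and 6.50 and 6.81 at 300 ng/ml, and its ratios -3.74 and -3.37 (-3.55 ± 0.26). Itgb3, the beta chain of the vitronectin receptor, was at -1.95 and -2.17 (-2.06 ± 0.15), with another probe at -1.80, and Itgax is given above. In the corner, Itga4, Selplg, Itgb1 and Itgb2 were lower by over 1.5 on array 1 but lay between -0.77 and 0.05 on array 2.

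Chemokine and chemokine receptor genes were split, with 3 of 17 higher and 4 lower. The ligand genes Cxcl10, Ccl5 and Ccl4 were higher: Cxcl10 at 2.60 and 2.49 (2.54 ± 0.075), Ccl5 at 2.00 and 1.89 (1.95 ± 0.076) and Ccl4 at 1.18 and 1.13 (1.16 ± 0.034). The receptor genes Ccr2, given above, and Cxcr5, which guides B cells to follicles, were lower, Cxcr5 at -1.54 and -1.30 (-1.42 ± 0.17). The ligand gene Ccl6, in the corner, was at -1.40 and -1.01 (-1.21 ± 0.27), and Ccl9 completes the lower members. The 4 lower became 2 with median centring and 7 with processed signals.

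B lineage regulators were mixed. Of 25 B lineage transcription factor genes 2 were higher and 2 lower (median 0.064). The 2 higher were Irf4 and Ikzf3, which are also Pax5-activated members and are given above. Mef2c, a factor shared by B and myeloid progenitors, was at -1.75 and -1.58 (-1.66 ± 0.12), with another probe at -0.64. Ikzf1, the gene of Ikaros, lies in the corner and was at -2.32 and -1.04 (-1.68 ± 0.90), so its array 2 value is close to the size. Ebf1, which acts upstream of Pax5, was at -0.46 and -0.27, Tcf3, the gene of E2A, at 0.84 and 0.50 and Foxo1 at 0.073 and 0.00046. Of 14 B cell coreceptor genes 1 was higher and 2 were lower (median 0.0007). The lower members were the Toll-like receptor partner genes Ly86 at -1.45 and -1.31 (-1.38 ± 0.10) and Cd180 at -1.04 and -1.59 (-1.31 ± 0.39).

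No called member was found among 15 genes of the pre-B cell receptor or 11 of V(D)J recombination, with medians of -0.087 and -0.23. On array 2 alone the V(D)J median was 0.064, on the other side of 0. Rag1, a recombinase subunit, was at -0.82 and -0.74 and Ighm at 0.51 and 0.16. Dntt, the polymerase that adds nucleotides at V(D)J joints, was outside this count because the scanner marked its brightest probe as an outlier on array 1. That probe was at -2.48 on array 2, and its 2 other probes were at -2.53 and -2.34, and at -2.32 and -2.53, on arrays 1 and 2. All 5 readings of Dntt were thus more than 4-fold lower.

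Of 19 Notch pathway genes 1 was higher and 2 lower (median -0.032). Beside Notch1 and Il2ra, the ligand gene Jag1 was at 1.29 and 1.05 (1.17 ± 0.17). Some target genes stood closer to 0: Hes1 at -0.81 and -0.13, Nrarp at 0.77 and 0.61 and Ptcra, the pre-T cell receptor chain, at 0.15 and -0.20. Hes1, Nrarp and Ptcra were not called, whereas Il2ra, on the same list, was called lower, as Notch1 was.

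**Figure D4:**
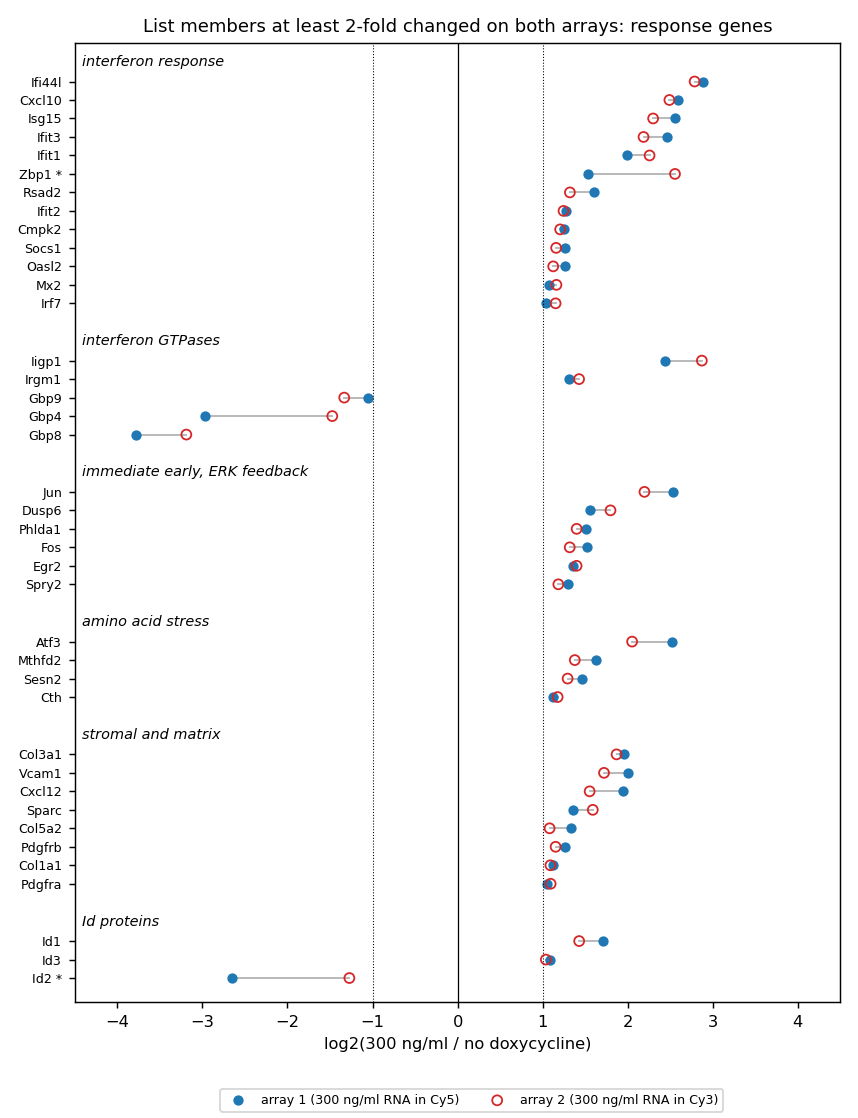
Log2 ratio of list members at least 2-fold changed on both arrays for the response lists, with array 1 filled and array 2 open. A star marks a probe in the dim corner, such as Zbp1 at 1.54 and 2.56 and Id2 at -2.65 and -1.27.

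Interferon-induced genes made up the largest number of called members of any list. Type I interferon signals through a complex that holds STAT2 and IRF9 and binds the interferon-stimulated response element of such genes. Of 33 members with a value 13 were higher and 0 lower, with a median of 0.77. With median centring 8 were higher. Ifi44l, the highest named feature of the comparison, had signals of 6.89 and 6.42 without doxycycline and 9.78 and 9.21 at 300 ng/ml. Its ratios were 2.89 and 2.79 (2.84 ± 0.071), with another probe at 2.22. Isg15, the ubiquitin-like modifier, had signals of 11.48 and 11.82 without doxycycline and 14.04 and 14.12 at 300 ng/ml, and ratios of 2.56 and 2.30 (2.43 ± 0.18).

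The antiviral Ifit genes stood together: Ifit3 at 2.46 and 2.19 (2.32 ± 0.19), Ifit1 at 2.00 and 2.26 (2.13 ± 0.18) and Ifit2 at 1.27 and 1.25 (1.26 ± 0.02), with another Ifit2 probe at 0.19. Rsad2, the gene of viperin, was at 1.60 and 1.32 (1.46 ± 0.20), its neighbour Cmpk2 at 1.26 and 1.21 (1.23 ± 0.036) and Mx2 at 1.07 and 1.16 (1.12 ± 0.064). The signalling members were Irf7 at 1.04 and 1.15 (1.09 ± 0.082) and Socs1, a feedback inhibitor, at 1.27 and 1.16 (1.21 ± 0.076). Oasl2 was at 1.26 and 1.12 (1.19 ± 0.10). Zbp1, a nucleic acid sensor in the corner, was at 1.54 on array 1 and 2.56 on array 2, and Usp18, the protease that removes ISG15, also in the corner, at 0.98 on array 1 and 2.93 on array 2. Read from array 2 alone, Usp18 would pass the size.

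Not every interferon gene was higher. Irf9 was at -0.87 and -0.59, Oas2 at -0.91 and -0.67 and Ifi27 at -0.57 and -0.85, all below 0 on both arrays, and Stat2 was at 0.24 and 0.38. The interferon-inducible GTPases, which attack vacuoles of intracellular microbes, were split between their families, with 2 of 15 higher and 3 lower. Iigp1 at 2.44 and 2.87 (2.65 ± 0.31) and Irgm1 at 1.31 and 1.43 (1.37 ± 0.081) are immunity-related GTPases. Gbp8 at -3.78 and -3.19 (-3.48 ± 0.42), Gbp9 at -1.05 and -1.33 (-1.19 ± 0.20) and Gbp4 at -2.97 on array 1 and -1.47 on array 2 are guanylate-binding proteins. Gbp5 was at 0.50 and 0.53, so the guanylate-binding family was itself mixed. Of 14 genes of the Ifi200 and inflammasome list none was called (median 0.049), and the same held for 16 MHC class I genes (median -0.29, or -0.15 without the corner's spots and -0.035 with median centring), with B2m at -0.64 and -0.83.

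The promoters of 4 of the called interferon genes are shown because the response element is a defined sequence. The sequence searched, on both strands, was a pair of GAAA blocks with 2 bases of any kind between them. Of the 13 called genes 11 have a RefSeq window, and 6 of these hold a match (54.5%): Cxcl10, Ifit1, Ifit3, Isg15, Rsad2 and Socs1. The motif is in 3.99% of 27025 genes with a window and in 3.92% of the 10806 tested features that have one. The called genes were listed as interferon-induced and taken by their ratios, so their share is a description. A match is not a binding site. The windows printed are chr4:156200769-156201068 (minus strand) for Isg15, chr19:34640639-34640938 (plus strand) for Ifit1, chr5:92348840-92349139 (minus strand) for Cxcl10 and chr12:26456403-26456702 (minus strand) for Rsad2, in build GRCm38.p6, with matches in capitals. Isg15 has 3 matches that overlap each other and Ifit1 has 2.
Isg15: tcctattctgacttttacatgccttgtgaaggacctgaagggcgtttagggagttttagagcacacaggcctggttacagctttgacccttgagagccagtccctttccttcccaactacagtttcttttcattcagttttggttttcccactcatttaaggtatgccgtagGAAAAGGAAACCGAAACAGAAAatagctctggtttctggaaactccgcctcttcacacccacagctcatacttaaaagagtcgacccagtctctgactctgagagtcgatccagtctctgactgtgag
Ifit1: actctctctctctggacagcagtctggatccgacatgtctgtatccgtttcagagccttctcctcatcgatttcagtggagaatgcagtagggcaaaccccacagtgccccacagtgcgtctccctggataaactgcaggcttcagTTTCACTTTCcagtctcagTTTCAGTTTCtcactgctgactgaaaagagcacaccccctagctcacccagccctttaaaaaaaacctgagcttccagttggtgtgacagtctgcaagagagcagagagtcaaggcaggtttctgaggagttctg
Cxcl10: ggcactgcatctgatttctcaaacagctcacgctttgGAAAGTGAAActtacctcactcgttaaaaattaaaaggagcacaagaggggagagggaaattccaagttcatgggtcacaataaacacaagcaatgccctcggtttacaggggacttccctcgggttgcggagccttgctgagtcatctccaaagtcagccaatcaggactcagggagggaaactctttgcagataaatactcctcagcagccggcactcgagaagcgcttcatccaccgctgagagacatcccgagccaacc
Rsad2: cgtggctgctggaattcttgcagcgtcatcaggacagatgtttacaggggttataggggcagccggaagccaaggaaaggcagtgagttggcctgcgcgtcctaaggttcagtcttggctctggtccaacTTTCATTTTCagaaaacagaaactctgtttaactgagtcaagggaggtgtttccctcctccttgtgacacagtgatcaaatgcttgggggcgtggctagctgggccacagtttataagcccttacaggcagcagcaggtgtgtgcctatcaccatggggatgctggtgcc

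The 6 other motifs were searched on both strands of the same windows. Of all genes with a window, 9.55% held GAS (TTCNNNGAA), 4.51% AARE (TGATGNAA), 2.03% CRE (TGACGTCA), 15.4% EBF1 (CCCNNGGG), 2.43% a Pax5 core (GCGTGAC) and 1.81% the CArG box. Of the 10806 tested features with a window, the shares in the same order were 8.5%, 2.93%, 3.26%, 20.7%, 4.02% and 1.58%. The 11 windowed interferon genes held GAS in 1, EBF1 in 2 and the 4 others in 0. The 5 windowed Pax5-activated genes held EBF1 in 1 (Cplx2) and none of the 7 others, and the 5 Pax5-repressed genes held none of the 8. No match says only that these letters are not in this window.

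Of 21 immediate early genes and feedback genes of the ERK pathway with a value, 6 were higher and 0 lower, with a median of 0.76. The count was 2 with median centring and 10 with processed signals. Jun, an AP-1 subunit, had signals of 9.72 and 9.70 without doxycycline and 12.25 and 11.90 at 300 ng/ml. Its ratios were 2.53 and 2.20 (2.36 ± 0.24), and those of its partner gene Fos 1.52 and 1.32 (1.42 ± 0.14). Egr2, an early zinc finger factor, was at 1.36 and 1.40 (1.38 ± 0.026). The feedback inhibitors were Dusp6, a phosphatase of ERK, at 1.55 and 1.80 (1.67 ± 0.17) and Spry2 at 1.30 and 1.18 (1.24 ± 0.08), and Phlda1 was at 1.52 and 1.40 (1.46 ± 0.082). Junb, Fosb, Dusp1 and Dusp7 were above 0 on both arrays without reaching the size on both, and Ier3 was below 0 at -0.82 and -0.88.

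Among 24 amino acid stress genes, which ATF4 controls when amino acids are scarce, 4 were higher and 0 lower (median 0.51; 2 with median centring). Atf3, a stress-induced transcription factor, was at 2.52 and 2.05 (2.28 ± 0.33), and the mitochondrial folate enzyme gene Mthfd2 at 1.62 and 1.38. Cth, the last enzyme of cysteine synthesis, was at 1.12 and 1.18 (1.15 ± 0.04). Sesn2 was at 1.46 and 1.29 (1.38 ± 0.12), but its other probe was at -0.80. Asns, the asparagine synthetase gene, lies in the corner and was at 0.0032 on array 1 and 1.83 on array 2. Atf4 itself was at -0.15 and 0.15. None of the 18 aminoacyl-tRNA synthetase genes listed was called, with a median of 0.36, and none of 21 endoplasmic reticulum chaperone genes (median -0.14). Lars2, a mitochondrial aminoacyl-tRNA synthetase gene not on that list, was called higher and is given below.

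The Id genes, inhibitors of E proteins, differed from each other. Id1 was at 1.71 and 1.43 (1.57 ± 0.20), with another probe at 1.56, and Id3 at 1.08 and 1.04 (1.06 ± 0.033). Id2, which supports innate lymphoid and NK cells, lies in the corner and was at -2.65 on array 1 and -1.27 on array 2, with another probe at -1.05. Id4 was at 0.71 and 0.70. The list of 7 thus held 2 higher and 1 lower, but 1 higher with block medians taken out, that is, with the median of each block of 10 by 10 spots subtracted on each array.

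Of 39 stromal and matrix genes 8 were higher and 0 lower, with a median of 0.61. With median centring 4 were higher. Cxcl12, the chemokine that stromal cells use to retain B cell precursors, had signals of 12.41 and 12.48 without doxycycline and 14.36 and 14.03 at 300 ng/ml. Its ratios were 1.95 and 1.55 (1.75 ± 0.28), with another probe at 1.22. The collagen genes were Col3a1 at 1.96 and 1.87 (1.91 ± 0.064), Col5a2 at 1.34 and 1.08 (1.21 ± 0.18) and Col1a1 at 1.12 and 1.09 (1.11 ± 0.022). Other probes of Col3a1 and Col1a1 were at -0.02 and 0.37. Sparc, a collagen-binding protein, was at 1.36 and 1.59 (1.47 ± 0.16).

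The growth factor receptor genes Pdgfrb at 1.26 and 1.15 (1.21 ± 0.079) and Pdgfra at 1.05 and 1.09 (1.07 ± 0.029) and the adhesion gene Vcam1 at 2.00 and 1.72 (1.86 ± 0.20, another probe at 0.44) complete the called stromal members. Fn1, fibronectin, was just under the size at 0.99 and 0.88. Acta2, smooth muscle actin, was on the other side at -0.76 and -0.83, and Thy1 was at -0.24 and -0.15. The summed linear signal of the 14 stromal feeder cell markers was 24262 and 24409 without doxycycline and 46929 and 41053 at 300 ng/ml, a ratio of 1.93 on array 1 and 1.68 on array 2. Dcn and Lum, which many fibroblasts express, were not well above background in either RNA. The feeder layer was part of every culture, and its share in the higher stromal, interferon and immediate early genes was not tested.

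The cell cycle lists held few called members. Over all features 1.54% were higher and 2.77% lower, so few calls in lists of this length say little. None of 29 DNA replication genes was called (median 0.26, with 0.043 on array 1 and 0.31 on array 2), with Rfc4 at 0.81 and 0.86 and Mcm2 at 0.55 and 0.53. Of 25 mitosis genes only Knl1, a kinetochore scaffold, was called, lower at -1.04 and -1.07 (-1.06 ± 0.021; list median 0.29). With block medians taken out none was called, and Aurkb was at 0.82 and 0.75. Of 19 kinesin genes 2 were higher, Kifc1 at 2.87 and 2.66 (2.76 ± 0.15) and Kifc5b, in the corner, at 2.45 and 2.63 (2.54 ± 0.13). These 2 genes are near-identical copies, so their probes may read the same transcript, and without the corner's spots 1 was left. The other 17 kinesin genes listed were not called, Kif20a for example at 0.11 and 0.33. Kif5a, a kinesin gene in the corner that is not on the list, was called lower and is given below.

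Of the 21 histone genes listed 3 were lower and 0 higher (median -0.40, with -0.92 on array 1 and -0.26 on array 2). The linker histone gene H1f10, not on the list, was called higher at 1.89 and 2.10 (2.00 ± 0.15). H1f4, a linker histone gene, was at -1.77 and -1.18 (-1.48 ± 0.41) and H1f3 at -2.13 and -2.13 (-2.13 ± 0.00013), although another H1f3 probe was at -0.38. Macroh2a1, a variant of silent chromatin, lies in the corner at -3.06 on array 1 and -1.80 on array 2, with 2 other probes at -1.61 and -1.64. Of 19 cyclin, CDK inhibitor and Myc family genes, the Myc antagonist gene Mxd4 was lower at -1.17 and -1.62 (-1.39 ± 0.32; list median 0.10). Of 14 Bcl2 family genes 1 was lower, the survival gene Bcl2a1b at -1.64 and -1.63 (-1.64 ± 0.0058). That list's median was -0.66, but -0.21 without the corner's spots and -0.15 on array 2 alone. Bcl2l11, the gene of the death factor BIM, was at -0.56 and -0.69.

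In metabolism the called genes were few in number, and over all features 1.54% were higher and 2.77% lower. Hk2, the inducible hexokinase gene, was higher at 1.54 and 1.47 (1.51 ± 0.053), and Txnip, an inhibitor of glucose uptake, was lower at -1.01 and -1.27 (-1.14 ± 0.18), the only 2 called of 30 glucose genes (median 0.049). Slc2a1, the glucose carrier of proliferating cells, was at 0.81 and 0.60. Of 31 sterol and fatty acid genes 2 were higher, among them Msmo1, a demethylation enzyme of cholesterol synthesis, at 1.00 and 1.00 (1.00 ± 0.00044). The list median was 0.011.

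**Figure D5:**
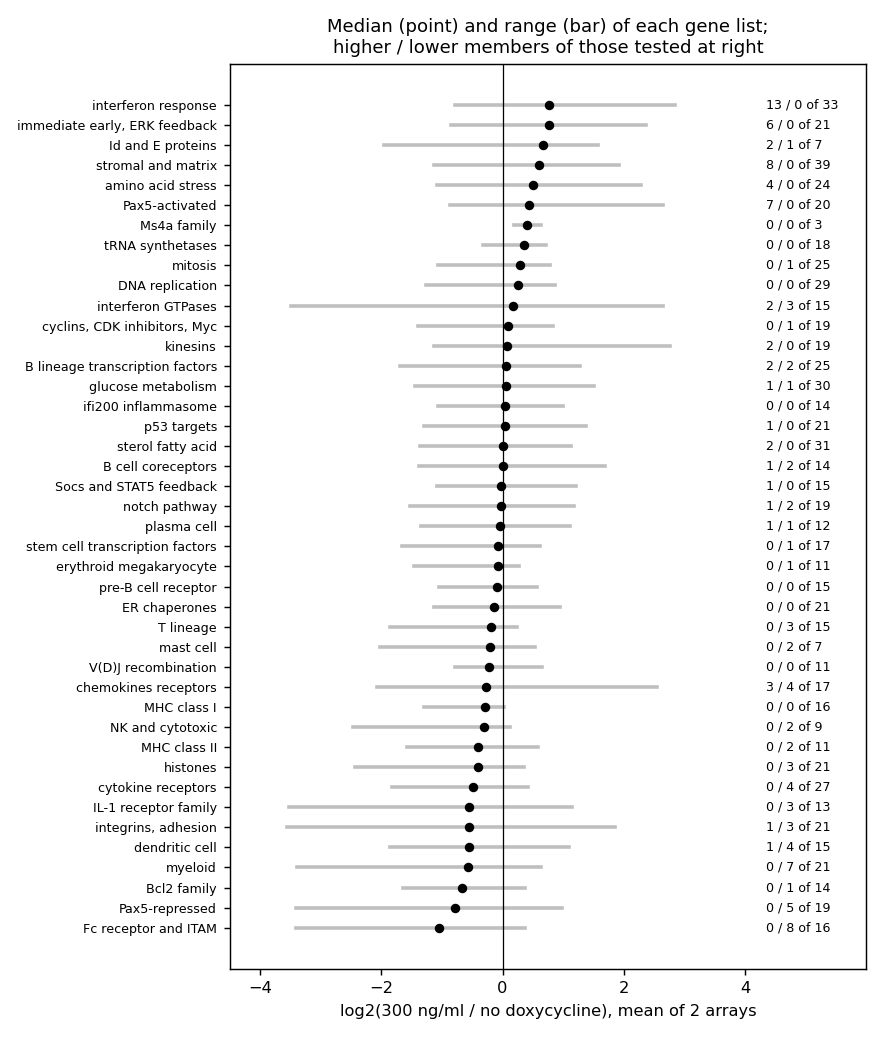
Median (point) and range (bar) of the mean log2 ratio over the tested members of each of the 42 gene lists, with the number of members higher and lower on both arrays. Medians run from -1.04 for the Fc receptor and ITAM list to 0.77 for the interferon response list, while all features have a median of -0.019.

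The called members of the other lists follow, beside shares over all features of 1.54% higher and 2.77% lower. Dendritic cell genes had 1 of 15 higher (Irf7) and 4 lower (median -0.56, or -0.27 without the corner's spots), and 0 higher with block medians taken out, with Ly6d, in the corner, at -2.04 on array 1 and -1.18 on array 2 and Siglech, dim at 300 ng/ml, at least 2.11-fold lower. MHC class II genes had 2 of 11 lower (median -0.40; 1 with block medians taken out), namely H2-Oa at -2.09 and -1.07 (-1.58 ± 0.73) and H2-DMb1 at -1.08 and -1.08 (-1.08 ± 0.0034). Among 12 plasma cell genes Irf4 was higher and Jchain lower (median -0.041). Gp9, a platelet glycoprotein gene, was the 1 lower of 11 erythroid and megakaryocyte genes at -1.55 and -1.38 (-1.46 ± 0.12; list median -0.079). Mef2c was the 1 called of 17 stem cell factor genes (median -0.076), Socs1 the 1 of 15 Socs and STAT5 genes (median -0.025) and Sesn2 the 1 of 21 p53 targets (median 0.045). None of 3 Ms4a family genes was called (median 0.41).

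The called features with a gene name numbered 235 higher and 325 lower. The highest outside the lists included Arl15, a small GTPase, at 2.20 and 2.59 (2.39 ± 0.27), Copg2, a coat protein of Golgi vesicles, at 2.39 and 2.19 (2.29 ± 0.14), and Lars2, the mitochondrial leucyl-tRNA synthetase, at 2.40 and 2.15 (2.27 ± 0.17). The 2 other probes of Copg2 differed from each other, with 1 on the same side past 0.5 and 1 near 0. At 10 ng/ml and in Pax5sz2 cells, Arl15 was at 2.48 and 2.69, Copg2 at 2.29 and 2.36, and Lars2 at 2.22 and -0.51. Arl15 and Copg2 were thus as high in cells that lack huPax5, and Lars2 was not.

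The lowest outside the lists included the neural genes Gria2, a glutamate receptor subunit, at -2.96 and -2.89 (-2.92 ± 0.052), and Slc17a8, a glutamate transporter, at -3.31 and -3.23 (-3.27 ± 0.058), with other probes at -0.64 and -0.57. The sphingolipid transporter homologue Spns3 was at -3.30 and -2.92 (-3.11 ± 0.27), and the scavenger receptor family gene Cd163l1 at -3.07 and -2.43 (-2.75 ± 0.45). Of the 15 lowest, 5 lie in the corner, with array 2 values closer to 0: Nrgn at -4.22 on array 1 and -2.85 on array 2, S100a4 at -3.88 on array 1 and -2.29 on array 2, P2ry12 at -3.05 on array 1 and -2.76 on array 2, Kif5a at -3.57 on array 1 and -2.05 on array 2 and the cold-inducible RNA-binding gene Cirbp at -3.67 on array 1 and -1.92 on array 2. Each of these 5 was still more than 3-fold lower on array 2.

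Other probes of the called genes often gave another answer. Of 102 higher genes with another detected probe, all other probes had the same sign and more than 0.5 in 37 (36.3%). For the lower genes this held in 71 of 158 (44.9%). Of the members described, Fcer1g, Il1r2, Pirb, Lat2, Notch1, Itgb3, Ifi44l, Ifit3, Rsad2, Irgm1 and Id1 had other probes on the same side past 0.5. Among those with another probe short of that were Pax5, Cplx2, Copg2, Csf2rb, H1f3, Ikzf3, Nedd9, Ccr2, Ifit2, Sesn2, Col3a1, Vcam1 and Col1a1.

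The values of the main members in the other comparisons, which used the same control RNA, are given side by side with no test of the differences. At 10 ng/ml, Blnk was at -0.90 and Cplx2 at -0.83, below 0, against 2.62 and 2.65 at 300 ng/ml. Fcer1g was at -0.57 and Ctsg at 0.038 at 10 ng/ml, against -3.40 and -2.98. The Pax5-activated, Fc receptor and myeloid members named here were thus smaller in size or of the other sign at the lower dose. Isg15 was at 2.28, Ifit1 at 2.01, Jun at 1.79, Cxcl12 at 1.45, Id1 at 1.79 and Arl15 at 2.48 at 10 ng/ml, against 2.43, 2.13, 2.36, 1.75, 1.57 and 2.39 at 300 ng/ml. The interferon, early and stromal genes named here had ratios of the same sign at both doses.

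In Pax5sz2 cells, which lack huPax5, Blnk was at -3.41, Fcer1g at -1.09 and Tyrobp at 0.10. Isg15 was at 1.30, Jun at 1.08, Cxcl12 at 1.78, Id1 at 1.39 and Arl15 at 2.69 there. Ifi44l at -0.60, Cxcl10 at -0.25 and Atf3 at -1.06 were on the other side. The list medians in those cells were 0.37 for interferon-induced genes, -0.21 for immediate early and ERK feedback genes and 0.035 for stromal genes. At 1000 ng/ml as labelled, Blnk was at -4.20, Fcer1g at 4.46, Tyrobp at 4.06 and Ctsg at 5.14, each of the other sign than at 300 ng/ml. Isg15 was at -0.092 and Cxcl12 at -0.11 at that dose. The direction of the 1000 ng/ml pair is not settled, as said above, and with its sign turned these 4 members would have the sign they had at 300 ng/ml.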

How the data were processed

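Each pair of RNAs was hybridised on 2 Agilent mouse arrays of opposite dye. The deposited scanner output, per the file headers from Feature Extraction 10.5.1.1 (a tool the submitters' processing notes also list), gives unnormalized spot and local background intensity and a log10 ratio of processed signals. The deposited series matrix log10 values equal that ratio, turned to treated over control.

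Background was corrected with normexp (offset 50) and ratios normalized by loess within each array (R 4.3.3, limma 3.58.1). Control spots had weight 0, and spots marked as outliers (295 on array 1, 41 on array 2) were left out. Each gene is its brightest probe among those that either RNA raised well above background on both arrays (17294 features, 175 lost to outliers). Between 59.5% and 65.5% of spots were well above background, and no spot was saturated. Precision is limited by the 1 RNA sample per group, the 2 arrays and the noise of array 1, whose processed Cy5 signals had a median CV of 22.9% against 7.39% on array 2. A channel signal is the log2 of the deposited intensity after loess and Aquantile. The named genes are Pax5, list members past the size (up to 8 per list and direction) and the 15 highest and 15 lowest, and others were named after their values were seen. The members and the 42 lists were chosen with earlier results of these data known. Some members that enter the counts are not reported here by name. The size rule and the search for the dim corner were run on simulated ratios, and the other steps were not. Promoters are from RefSeq (GRCm38.p6), while the headers name another build, so no array coordinates are given.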

Additional observations from a re-analysis of the deposited data

Results flagged for a closer look

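Of the named genes, 5 had ratios of one sign on both arrays at 300 ng/ml and of the other sign on both arrays at 10 ng/ml, and these differences were not tested. Blnk was at 2.62 at 300 and -0.90 at 10 ng/ml, Cplx2 at 2.65 and -0.83, and Irf4 at 1.11 and -0.24. The other 2 were lower at 300 ng/ml and higher at 10 ng/ml: Cd163l1 at -2.75 and 0.46, and the mast cell protease gene Mcpt8 at -1.71 and 0.53.

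Against the 1000 ng/ml pair as labelled, 89 named genes past the size at 300 ng/ml had the other sign on both arrays, and 16 with a detected probe there did not. The direction of that pair is not settled, and with its sign turned these 89 would have the sign they had at 300 ng/ml. The difference was not tested, and dose, slides, scanner protocol and a turned pair cannot be told apart.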

How the results depend on the processing

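The counts were 264 higher and 474 lower features. Centring on the median gave 97 higher, and both Agilent's processed signals and the series matrix ratios gave 718 higher and 1068 lower. At 1.5-fold there were 1009 and 1516, at 4-fold 23 and 41. Leaving out an array gave 442 to 474 higher and 655 to 1793 lower features, the high value being array 1 alone with its dim corner. With median centring the members called were 2 of the amino acid stress list, 2 lower of the chemokine list, 2 of the immediate early list, 5 of the Fc receptor list, 8 of the interferon list, 3 of the Pax5-repressed list, 4 of the stromal list and 1 of the T lineage list. Processed signals and matrix ratios gave 7 lower chemokine and 10 immediate early members, and the median over a gene's probes 2 cytokine receptor members. Leaving out an array gave 4 to 7 cytokine receptor, 7 to 10 immediate early, 3 to 8 histone, 3 to 6 IL-1 receptor family, 4 to 8 integrin and 3 to 5 T lineage members. The counts of 7 Pax5-activated and 7 myeloid members ranged from 5 to 8 over the alternatives run. Of the 112 named genes, 58 moved by more than the SD of the 2 arrays with processed signals and 58 with matrix ratios, 33 with block medians taken out, 33 with the median over a gene's probes, 27 with median centring and 5 without background subtraction. No named gene past the size changed sign under the 12 alternatives, which genes taken at 2-fold or more could hardly do, and 10 had no probe outside the corner. Leaving out the corner, taking out block medians and the brightest probe with both values were chosen after seeing the data. No paired analysis was possible because each group is 1 RNA sample and the array numbers follow accession order.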
